A study of Mus musculus with 8 samples.

Results

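Heparan sulfate is a long sugar chain carried by a few proteins of the cell surface and matrix, and 10 genes for the enzymes that build and edit it were examined in pancreatic alpha cells of the mouse after knockdown of the transcription factor Klf4. All 10 symbols (Hs6st1, Hs6st2, Hs2st1, Ndst1, Ndst2, Ext1, Ext2, Sulf1, Sulf2 and Glce) were found among the 55536 genes of the count table, and 9 had enough counts to be tested among 16333. The genes were selected on measured values, because the fold changes of Hs6st1 and Sulf1 after knockdown stood apart from the rest of the pathway, so their differences between treatments are given as a description, with no test. Poly(A) RNA came from alphaTC6 cells, a glucagon-producing cell line labelled as wild type, 48 h after lipid transfection. The 4 control libraries received a scramble siRNA and the 4 knockdown libraries a pool of siRNAs against Klf4. The labels name 2 batches: batch 1 has control replicates 1 and 2 and knockdown replicates 1, 2 and 4, and batch 2 has control replicates 3 and 4 and knockdown replicate 3. All libraries are labelled as this cell line, although the labels' extraction text speaks of islets. The design text calls the replicates biological and does not say how their cultures were kept apart, so p-values measure the spread between these libraries. The stated purpose was to find how Klf4 affects gene expression in alpha cells in vitro.

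The chain is started on a short sugar linker and lengthened by a polymerase of the products of Ext1 and Ext2. Ndst enzymes then replace acetyl groups of the glucosamine by sulfate, Glce turns glucuronic into iduronic acid, and Hs2st1 and the Hs6st enzymes add sulfate to the iduronic acid and the glucosamine. Outside the cell, Sulf1 and Sulf2 take 6-O-sulfate off again, so the Hs6st and Sulf enzymes act on the same position with opposite effect. The resulting sulfate pattern is known to set how well growth factors such as FGFs, Wnts and VEGF bind at the cell surface.

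Library totals ran from 45954151 to 64185987 counts, and levels are CPM, the share of a library's counts on a common scale, with TMM, a scaling that allows for libraries of different composition. Klf4 itself had 35.1 to 46.8 CPM in control and 11.5 to 19.8 CPM in knockdown libraries, with a fitted log2 fold change of -1.33 (edgeR quasi-likelihood adjusted p = 0.0083). Without control replicate 1 that p was 0.052, and in batch 1 alone it was 0.104. Libraries split by batch along the first principal component (59.9% of the variance), and each fit of treatment therefore had a batch term. Of the cell markers, all 7 for alpha cells were measured (4880 to 13000 CPM in sum in control and 4700 to 11700 CPM in knockdown libraries), a range set mostly by Gcg, the glucagon gene. Gcg had 1257 and 1244 CPM in batch 1 controls and 8913 and 8833 CPM in batch 2 controls, against 1065 to 1231 CPM and 7640 CPM after knockdown. Of 5 beta cell markers, Ins1, Ins2 and Pdx1 had 0 counts in all 8 libraries, Iapp had at most 19 counts, and Mafa had 2.7 to 3.76 CPM. Of 5 markers of fibroblasts and stellate cells Col3a1 reached at most 1 count and Col1a1 at most 10 counts in a library. Col1a2 had 11.77 to 21.7 CPM and Pdgfra 2.87 to 7.02 CPM, and all 5 summed to 18.9 to 21.4 CPM in control and 19.5 to 27.2 CPM in knockdown libraries. Their part in the results was not tested. Less RNA per cell and fewer cells that express a gene cannot be told apart in such libraries.

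The 250 bases before the RefSeq start (GRCm38.p6) are shown for Hs6st1 and Hs2st1, whose 4 knockdown libraries all lay below the 4 control libraries. That of Ext2 is shown as an example of the genes whose groups overlapped. That of Extl2 is shown because Extl2 had, with Pxylp1, the most negative fold changes of the pathway genes outside the 10. The Pxylp1 window (chr9:96889475-96889724, minus strand) lies inside the annotated span of its gene and is given by its motif counts only. A window of this kind was found for 7 of the 10 genes. Ext1, Sulf1 and Ndst1 were not among them. Capitals mark CACCC, the short motif that KLF factors are known to bind. They also mark a GC box of the related Sp factors, spelled CCCGCCC. Both were searched on both strands, so that capitals also show their reverse complements. Of 32851 windows of this length, 52.0% held CACCC at least once and 23.4% held the GC box. The windows lie at chr1:36068150-36068399 on the plus strand (Hs6st1), chr3:144570217-144570466 on the minus strand (Hs2st1), chr2:93822569-93822818 on the minus strand (Ext2) and chr3:116007199-116007448 on the plus strand (Extl2, the first of 2 starts).
Hs6st1: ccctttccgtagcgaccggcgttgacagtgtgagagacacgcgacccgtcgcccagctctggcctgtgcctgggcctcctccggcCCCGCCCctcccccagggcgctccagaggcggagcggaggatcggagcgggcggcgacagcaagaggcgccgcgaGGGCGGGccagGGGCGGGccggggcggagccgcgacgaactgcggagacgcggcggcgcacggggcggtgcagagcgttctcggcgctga
Hs2st1: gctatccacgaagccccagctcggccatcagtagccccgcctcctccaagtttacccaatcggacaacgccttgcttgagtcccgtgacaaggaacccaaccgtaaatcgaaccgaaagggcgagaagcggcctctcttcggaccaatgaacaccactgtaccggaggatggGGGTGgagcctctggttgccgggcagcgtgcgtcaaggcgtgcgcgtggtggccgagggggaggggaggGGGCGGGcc
Ext2: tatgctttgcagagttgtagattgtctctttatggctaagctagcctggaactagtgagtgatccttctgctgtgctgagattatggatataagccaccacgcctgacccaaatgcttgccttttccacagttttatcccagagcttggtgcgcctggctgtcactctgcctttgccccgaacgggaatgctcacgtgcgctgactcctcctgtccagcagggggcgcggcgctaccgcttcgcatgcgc
Extl2: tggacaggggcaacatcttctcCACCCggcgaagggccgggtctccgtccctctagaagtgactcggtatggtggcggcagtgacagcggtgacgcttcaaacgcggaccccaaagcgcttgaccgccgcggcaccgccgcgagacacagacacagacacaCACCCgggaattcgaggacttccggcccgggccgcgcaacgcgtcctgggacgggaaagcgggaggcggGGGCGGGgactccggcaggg

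The Hs6st1 window held 0 matches to CACCC and 3 to the GC box, with 76.4% G and C. That of Hs2st1 held 1 match to each, that of Extl2 held 2 to CACCC and 1 to the GC box, and those of Ext2 and Pxylp1 held 0 of either. Windows of other genes whose groups overlapped did hold matches. That of Ndst2 held 1 to CACCC and 3 to the GC box, and that of Glce 0 and 2. The first Sulf2 window held 2 to CACCC and 1 to the GC box, and the second held 1 and 0. A match is a description of the letters only, and 0 matches says only that these letters are absent from this window.

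In control cells the editing enzyme Sulf2 had the highest level per length of the 10 genes, at 47.3 ± 0.586 CPM per kilobase of exon (SD, n = 4). Next came the polymerase subunit Ext2 (19.9 ± 1.17), the 6-O-sulfotransferase Hs6st1 (15.8 ± 1.49) and the 2-O-sulfotransferase Hs2st1 (13.8 ± 0.305), all in CPM per kilobase in control libraries. Ndst1 (9.65 ± 0.219), Glce (6.64 ± 0.528), Ext1 (3.53 ± 0.436), Ndst2 (1.94 ± 0.0939) and Sulf1 (1.00 ± 0.109) followed on the same scale. No 2 neighbours in this order overlapped in the 4 control libraries. Each gene family was thus uneven at the level of RNA: Sulf2 far above Sulf1, Ext2 above Ext1 and Ndst1 above Ndst2. After knockdown, Hs6st1 went from the third to the fifth place, at 9.17 ± 1.07 CPM per kilobase, and overlapped Ndst1 (10.1 ± 0.252) above it and Glce (8.11 ± 0.773) below it, while the other genes kept their relative order. Hs6st2, which encodes a second 6-O-sulfotransferase, had 0 counts in all 8 libraries, which allows at most 0.0468 to 0.0637 CPM per library (3 counts, counting error only). Hs6st3, a further enzyme of this family, also had 0 counts throughout, so that Hs6st1 was the one gene of these 3 with counts.

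**Figure D1:**
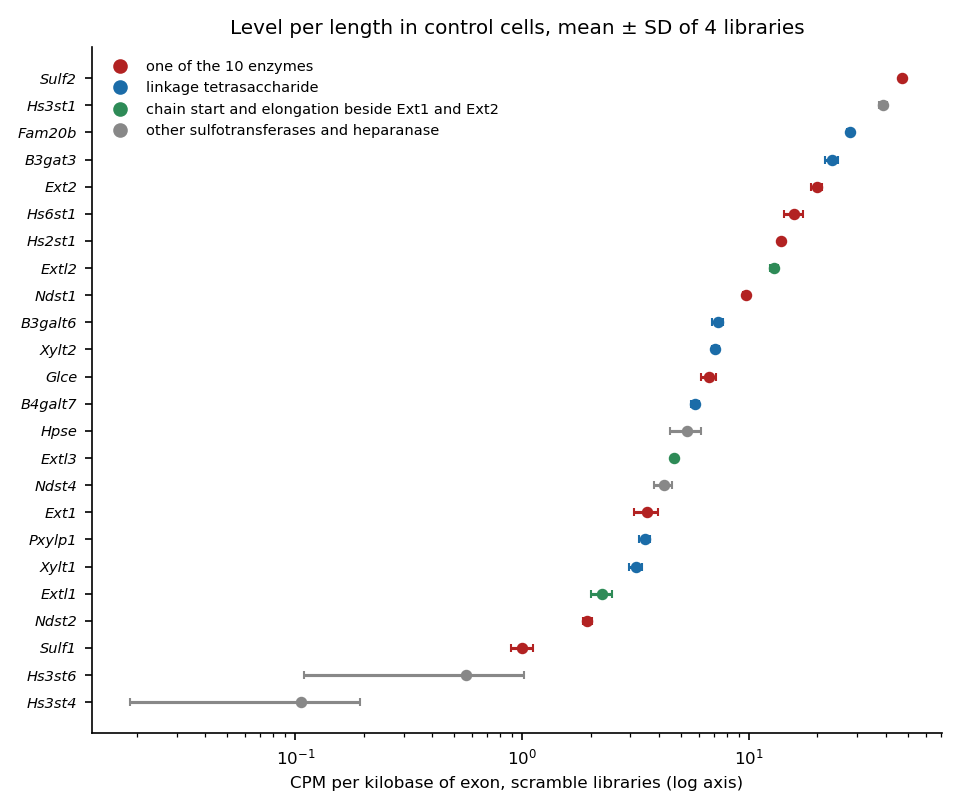
Level per length in control (scramble) libraries (CPM per kilobase of exon, log axis; points are means and bars SD of 4 libraries) for the 9 enzymes with counts and for tested genes of 3 pathway lists. Sulf2 is highest at 47.3 and Sulf1 is at 1.00 CPM per kilobase.

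Hs6st1 (ENSMUSG00000045216, chromosome 1, 36068400 to 36106446, plus strand, GRCm38) had the largest difference of the 9 genes. Control replicates 1 to 4 had 81.6, 80.0, 91.6 and 97.3 CPM, and knockdown replicates 1 to 4 had 45.97, 47.5, 59.2 and 50.6 CPM. All 4 knockdown libraries were below all 4 control libraries, and the highest of them was the batch 2 library. The group means were 87.6 ± 8.25 and 50.8 ± 5.91 CPM (SD, n = 4 each), and the fitted log2 fold change was -0.72 (standard error, s.e., 0.04), or 60.6% of the control level. The log2 difference was -0.75 within batch 1 and -0.67 within batch 2. Ordered from the most negative fold change, Hs6st1 was at rank 50 of the 16333 genes tested. Exons of Hs6st1 overlap Gm37335 on the opposite strand, and the latter had 1 to 14 counts per library against 2264 to 5870 for Hs6st1.

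Sulf1 (ENSMUSG00000016918, chromosome 1, 12692277 to 12861192, plus strand), the less abundant of the 6-O-endosulfatases, had 11.0, 9.75, 12.6 and 11.9 CPM in control replicates 1 to 4. Its levels were 8.12, 7.97, 8.999 and 9.16 CPM in knockdown replicates 1 to 4. The groups did not overlap, though the gap between control replicate 2 and knockdown replicate 4 was small. The group means were 11.3 ± 1.23 and 8.56 ± 0.603 CPM (SD, n = 4 each), and the log2 fold change was -0.36 (s.e. 0.07). Its log2 differences were -0.30 within batch 1 and -0.44 within batch 2. Sulf2 (ENSMUSG00000006800, chromosome 2, 166073089 to 166155663, minus strand), which removes the same sulfate, had 273.9 to 281.3 CPM in control and 270.7 to 282.7 CPM in knockdown libraries. Its groups overlapped over nearly their whole range, with a log2 fold change of -0.01 (s.e. 0.03). Exons of Sulf2 overlap Ncoa3 on the opposite strand (4526 to 7017 counts per library), and reads could be shared if strand was not used in counting.

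The rule sets Hs6st1 and Sulf1 against the rest of the pathway, so each was also measured within a library, as its log2 CPM minus the mean log2 CPM of the other 7 genes with counts. For Hs6st1 this difference was 0.35, 0.36, 0.51 and 0.62 in control replicates 1 to 4 and -0.44, -0.41, -0.06 and -0.30 in knockdown replicates 1 to 4. Thus Hs6st1 lay above the mean of the other genes in every control library and below it in every knockdown library. For Sulf1 it was -2.53, -2.67, -2.35 and -2.41 in control and -2.93, -2.98, -2.77 and -2.76 in knockdown libraries. The mean of the other 7 genes itself ranged from 5.95 to 6.01 log2 CPM over the 8 libraries. With batch as a term, the difference between treatments was -0.70 for Hs6st1 and -0.33 for Sulf1, both on the log2 scale.

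**Figure D2:**
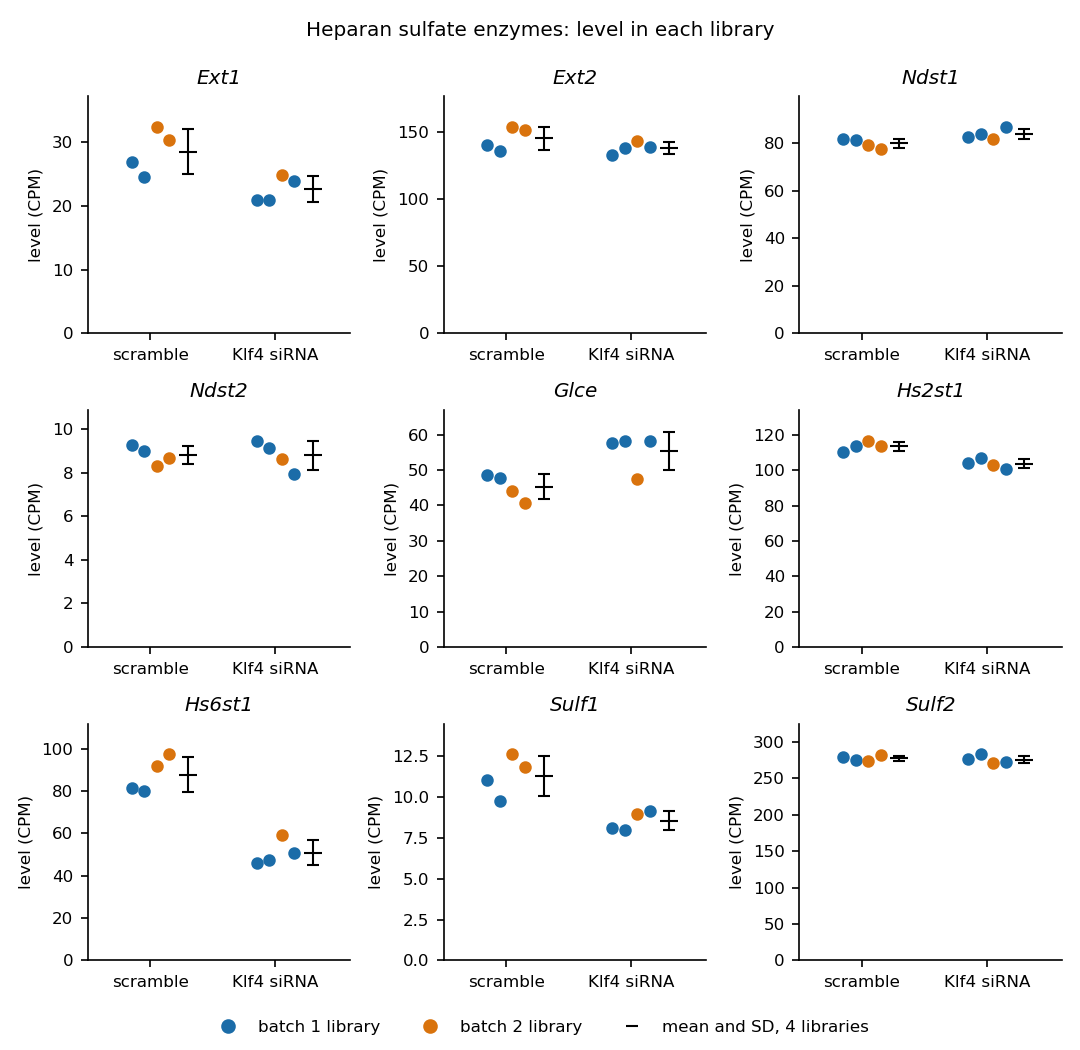
Level of each of the 9 enzymes with counts in each library (CPM; scramble is the control and Klf4 siRNA the knockdown; points are libraries coloured by batch, bars are mean and SD of 4 libraries per treatment). For Hs6st1 the 4 knockdown libraries lie between 45.97 and 59.2 CPM, below the control libraries at 80.0 to 97.3 CPM, while the treatments overlap for Sulf2.

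Of the polymerase genes, Ext1 (ENSMUSG00000061731, chromosome 15, 53064038 to 53346159, minus strand) had 26.9, 24.5, 32.3 and 30.4 CPM in control replicates 1 to 4. After knockdown it had 20.9, 20.98, 24.9 and 23.9 CPM in replicates 1 to 4. Control replicate 2 and the batch 2 knockdown library overlapped, but within each batch every knockdown library was below every control library. The log2 fold change was -0.27 (s.e. 0.05), and -0.23 and -0.33 within batches 1 and 2. Its partner Ext2 (ENSMUSG00000027198, chromosome 2, 93661028 to 93822568, minus strand) had 136.2 to 153.7 CPM in control and 132.8 to 143.6 CPM in knockdown libraries, which overlapped (log2 fold change -0.04, s.e. 0.03).

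Among the modifying enzymes, Glce, the C5-epimerase (ENSMUSG00000032252, chromosome 9, 62057248 to 62122655, minus strand), was higher after knockdown. It had 48.7, 47.7, 44.0 and 40.8 CPM in control replicates 1 to 4 and 57.6, 58.2, 47.5 and 58.2 CPM in knockdown replicates 1 to 4. The batch 2 knockdown library lay within the range of the control libraries, and within each batch every knockdown library was above every control library. The log2 fold change was 0.23 (s.e. 0.03), the highest fold change of the 9 genes, with 0.27 and 0.16 within batches 1 and 2. Hs2st1 (ENSMUSG00000040151, chromosome 3, 144429706 to 144570181, minus strand) had 110.6 to 116.7 CPM in control and 100.8 to 106.9 CPM in knockdown libraries, with no overlap and a log2 fold change of -0.13 (s.e. 0.03). The N-deacetylase and N-sulfotransferase Ndst1 had 77.7 to 81.6 CPM in control and 81.8 to 86.6 CPM in knockdown libraries. These groups also did not overlap, at a log2 fold change of 0.06 (s.e. 0.03). Ndst2 (ENSMUSG00000039308, chromosome 14, 20723730 to 20734562, minus strand) had 8.29 to 9.28 and 7.96 to 9.46 CPM, which overlapped (log2 fold change -0.02, s.e. 0.07).

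In all, the 4 libraries of one treatment did not overlap the 4 of the other for 3 genes that were lower (Hs6st1, Hs2st1, Sulf1) and 1 that was higher (Ndst1), against 5.55% (lower) and 4.97% (higher) of all genes tested, or 10.5% together. Since the same contrast chose the genes, nothing is read from this count. The median log2 fold change was -0.04 over the 9 genes and 0.00 over all tested genes. 

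**Figure D3:**
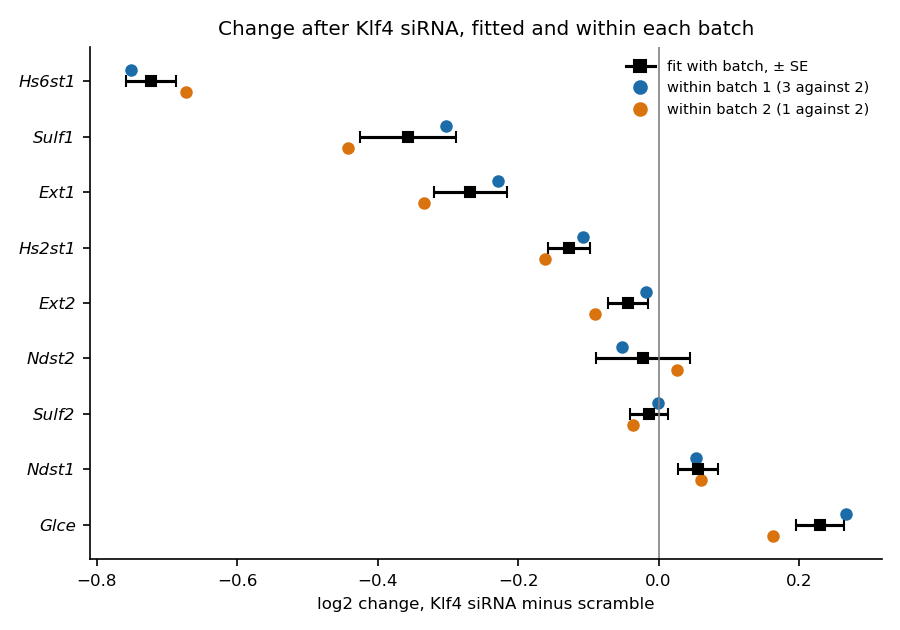
Log2 change after knockdown for the 9 enzymes with counts: the fit with batch as a term (squares, bars are standard errors) and the difference of mean log2 CPM within batch 1 and batch 2 (circles). Hs6st1 lies at -0.72 with -0.75 and -0.67 within the batches, and Glce at 0.23 is on the other side of 0.

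The batches differ for reasons the labels do not give, and this difference was not used to choose the genes, so it was tested. Of the 9 genes tested, 4 differed between batches at an edgeR adjusted p under 0.05, 3 higher and 1 lower in batch 2, against 32.7% of all genes tested (16.8% higher and 15.9% lower). Hs6st1 was higher in batch 2 by 0.26 on the log2 scale (s.e. 0.04, edgeR adjusted p = 1.0e-05), with 80.8 CPM as the mean of the control libraries of batch 1 and 94.4 CPM as that of batch 2. Ext1 was higher by 0.24 (s.e. 0.05, adjusted p = 0.0013) and Ext2 by 0.11 (s.e. 0.03, adjusted p = 0.0049). Glce was lower by 0.23 (s.e. 0.04, adjusted p = 4.3e-05). Sulf1 did not pass, at 0.18 (s.e. 0.07, adjusted p = 0.055), and its difference ran from 0.122 to 0.235 over 14 alternatives. It passed in 3 of them: with no filter, with a mean of at least 5 CPM (edgeR adjusted p = 0.044) and without knockdown replicate 4 (adjusted p = 0.012). Hs2st1, Ndst1, Ndst2 and Sulf2 had differences from -0.08 to 0.02 that did not pass. With library size alone as the scaling, the difference of Ext2 was 0.08 (adjusted p = 0.074), and the batch calls over all genes moved from 2747 higher and 2596 lower to 2111 higher and 3316 lower. Markers of other cells also differed between batches. The ductal markers Sox9 and Spp1 had 1.29 and 1.53 CPM and 0.07 and 0.17 CPM in batch 1 controls, against 4.12 and 4.63 CPM and 2.09 and 1.85 CPM in batch 2 controls. All 3 ductal markers, Krt19 with at most 2 counts included, summed to 1.38 to 6.48 CPM in control and 1.32 to 4.92 CPM in knockdown libraries. Pdgfra had 6.77 and 6.97 CPM in batch 1 controls and 3.23 and 3.02 CPM in batch 2 controls. Their part in the batch differences of the 9 genes was not tested.

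Hs6st1 and Ext1 were thus lower after knockdown and higher in batch 2, and Glce was higher after knockdown and lower in batch 2. Klf4 had a log2 difference of 0.38 between batches (s.e. 0.17), which did not pass (edgeR adjusted p = 0.170). Both differences use the same libraries, so no correlation between them is given. The interaction of batch and treatment was also fitted, since the change could differ between batches. It passed the threshold for 0 of the 9 genes and for 0 of 16333 genes (edgeR), with 540 genes (3.31%) at an unadjusted p under 0.05 and 0 by the Wald test of DESeq2. For Hs6st1 it was 0.08 (s.e. 0.07, edgeR adjusted p = 0.999), and batch 2 had a single knockdown library.

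**Figure D4:**
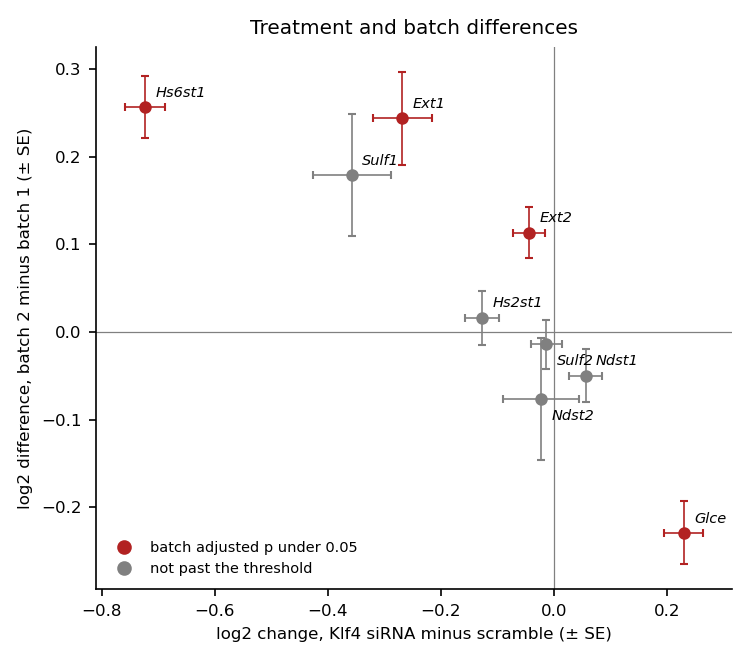
Fitted log2 change after knockdown (x axis) and log2 difference of batch 2 from batch 1 (y axis) for the 9 enzymes with counts, with standard errors. Hs6st1 (-0.72, 0.26) and Glce (0.23, -0.23) lie at opposite corners, and red points passed the threshold for batch.

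The other genes of the pathway were taken from 8 lists of 85 genes outside the 10 enzymes, of which 63 had enough counts to be tested. The lists were chosen with earlier results of these data known, so their counts are no independent support for any part of the pathway. At an edgeR adjusted p under 0.05, 16 of the 63 passed (25.4%), 6 higher and 10 lower after knockdown, against 11.7% of all genes tested (4.88% higher and 6.81% lower). The median log2 fold change was -0.05 over the 63 genes and 0.00 over all tested genes. The count was 8 without control replicate 1, 8 without control replicate 2, 9 without knockdown replicate 3 and 3 without the batch term (Pxylp1, Extl2 and Spred2). In the same fits 5.63%, 6.06%, 7.44% and 2.50% of all genes tested passed. With only genes of a mean of at least 5 CPM kept, 17 pathway genes passed, and the share of all 10387 genes tested was higher, at 19.35%.

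The largest falls were in the 2 lists at the start of the chain. Pxylp1 (ENSMUSG00000043587, chromosome 9, 96823336 to 96892669, minus strand) encodes the phosphatase that takes the phosphate off the xylose of the linker, a step known to release the linker for lengthening. It had 21.6, 22.8, 20.8 and 20.1 CPM in control replicates 1 to 4 and 12.4, 13.5, 12.8 and 12.8 CPM in knockdown replicates 1 to 4. The groups were far apart and narrow, with means of 21.3 ± 1.14 and 12.9 ± 0.459 CPM (SD, n = 4 each). Pxylp1 fell by 0.75 on the log2 scale (s.e. 0.05, edgeR adjusted p = 4.6e-09), and it passed under all 16 alternatives.

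Extl2 (ENSMUSG00000027963, chromosome 3, 116007462 to 116029017, plus strand) encodes a transferase that adds N-acetylglucosamine to a linker still carrying the phosphate, which is known to stop the chain. It had 43.1, 42.5, 46.4 and 45.3 CPM in control replicates 1 to 4 and 25.1, 27.4, 32.4 and 27.0 CPM in knockdown replicates 1 to 4. Again no knockdown library reached the control range, and the batch 2 library was the highest of its group. Extl2 fell by 0.62 on the log2 scale (s.e. 0.04, edgeR adjusted p = 4.6e-09) and passed under all 16 alternatives.

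Of the 7 linker genes tested, 2 fell and 0 rose (28.6%, against 11.7% of all genes tested), and the median log2 fold change was -0.06. The other fall was Xylt2, a xylosyltransferase that places the first sugar on the core protein, at -0.14 (edgeR adjusted p = 0.027). It did not pass without control replicate 1, control replicate 3, knockdown replicate 2 or knockdown replicate 3 (adjusted p = 0.216, 0.057, 0.056 and 0.128). Fam20b, the kinase that adds the phosphate Pxylp1 removes, had a fold change of -0.04 on the log2 scale (edgeR adjusted p = 0.448). Beside Extl2, Extl1 and Extl3 of the chain-start list did not pass, at -0.01 and 0.11.

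Of 12 further sulfotransferase and heparanase genes, 5 were tested and 0 passed (edgeR), with 0 at an unadjusted p under 0.05 and 0 past the threshold by the Wald test of DESeq2, which gave an adjusted p for 3 of them. These included Hs3st1, the 3-O-sulfotransferase known for the antithrombin-binding site, at 87.1 ± 3.68 CPM in control and 88.9 ± 3.89 CPM in knockdown libraries (SD, n = 4 each), and Ndst4 at 49.2 ± 4.63 and 53.1 ± 4.99 CPM. Per length, Hs3st1 had 39.1 ± 1.65 CPM per kilobase in control libraries, second to Sulf2 among the enzymes plotted by level. The 5 had log2 fold changes from -0.14 to 0.12.

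The supply list, for the sugar nucleotides and the sulfate donor PAPS, had 2 genes higher and 3 lower of 11 tested. This was 45.5% of them, against 11.7% of all genes tested. Impad1, a phosphatase that clears the spent donor in the Golgi, rose by 0.14 (edgeR adjusted p = 0.0027) and Uxs1, which makes UDP-xylose, by 0.15 (adjusted p = 0.0033). Without the batch term neither passed (adjusted p = 0.060 and 0.448). Ugdh, which makes UDP-glucuronic acid, and Papss1, a PAPS synthase, fell by 0.11 and 0.10 (edgeR adjusted p = 0.036 and 0.041). Ugdh did not pass without control replicates 1, 2 or 3 or knockdown replicates 1, 2 or 3 (adjusted p from 0.052 to 0.258), and Papss1 without any library other than knockdown replicate 2 (from 0.055 to 0.206). The remaining call was Slc35d2, a sugar nucleotide transporter at 3.52 ± 0.752 CPM in control libraries (log2 fold change -0.29, edgeR adjusted p = 0.044), which is outside the rule for naming and was added after its value was seen.

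Of the core proteins that carry the chains, 11 of 14 were tested, with 2 higher and 1 lower (27.3%, against 11.7% of all genes tested). Sdc1, a syndecan of the cell surface, had 29.8 and 30.5 CPM in batch 1 controls, against 23.3, 23.9 and 24.0 CPM after knockdown. Batch 2 controls had 48.0 and 49.3 CPM, against 40.8 CPM after knockdown. It fell by 0.31 (s.e. 0.04, edgeR adjusted p = 8.4e-06), but did not pass without the batch term (adjusted p = 0.444). Tgfbr3, or betaglycan, rose by 0.26 (edgeR adjusted p = 0.0088), and did not pass without control replicate 1 or 2 (0.074 and 0.052). Agrn, or agrin, rose by 0.12 (adjusted p = 0.033) and did not pass without any of the 4 control libraries or without knockdown replicate 1 or 3 (0.051 to 0.307).

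Of 7 lysosomal enzymes of breakdown tested, 1 rose and 2 fell (42.9%, against 11.7% of all genes tested). Ids, which removes the 2-O-sulfate of iduronic acid, had 519.6, 559.1, 615.4 and 594.7 CPM in control replicates 1 to 4 and 624.0, 641.9, 675.7 and 735.0 CPM in knockdown replicates 1 to 4, with no overlap. It rose by 0.25 (s.e. 0.06, edgeR adjusted p = 0.028), and did not pass without control replicate 1, 2 or 4 (adjusted p = 0.066, 0.086 and 0.102). Sgsh, the N-sulfatase, fell by 0.17 and Gusb, the beta-glucuronidase, by 0.11 (edgeR adjusted p = 0.013 and 0.017). Sgsh did not pass without control replicate 2 or knockdown replicate 3 (0.094 and 0.155), and Gusb without control replicate 1 or 2 or knockdown replicate 1 or 3 (0.055 to 0.094).

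Chondroitin and dermatan sulfate share the linker with heparan sulfate. Of 9 genes of that branch tested, Dse, the dermatan sulfate epimerase, alone passed (11.1%, against 11.7% of all genes tested). It rose by 0.19 (s.e. 0.03, edgeR adjusted p = 0.00043), but did not pass without the batch term (adjusted p = 0.446). Within each batch every knockdown library was above every control library for Dse, as for Glce. Dsel, a further dermatan sulfate epimerase gene, had 9.86 to 14.3 CPM in control and 8.82 to 13.4 CPM in knockdown libraries, which overlapped (log2 fold change -0.01, edgeR adjusted p = 0.981). Of 10 tested FGF receptors and feedback genes of the ERK pathway, which FGF signals through heparan sulfate are known to use, Spred2 alone passed (10%). Spred2 fell by 0.17 (s.e. 0.03, edgeR adjusted p = 0.00052). Neither list passed at a share above that of all genes tested. The receptor Fgfr2 had a fold change of -0.11 and the feedback phosphatase Dusp6 one of -0.01 on the log2 scale, neither past the threshold (edgeR adjusted p = 0.103 and 0.985).

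**Figure D5:**
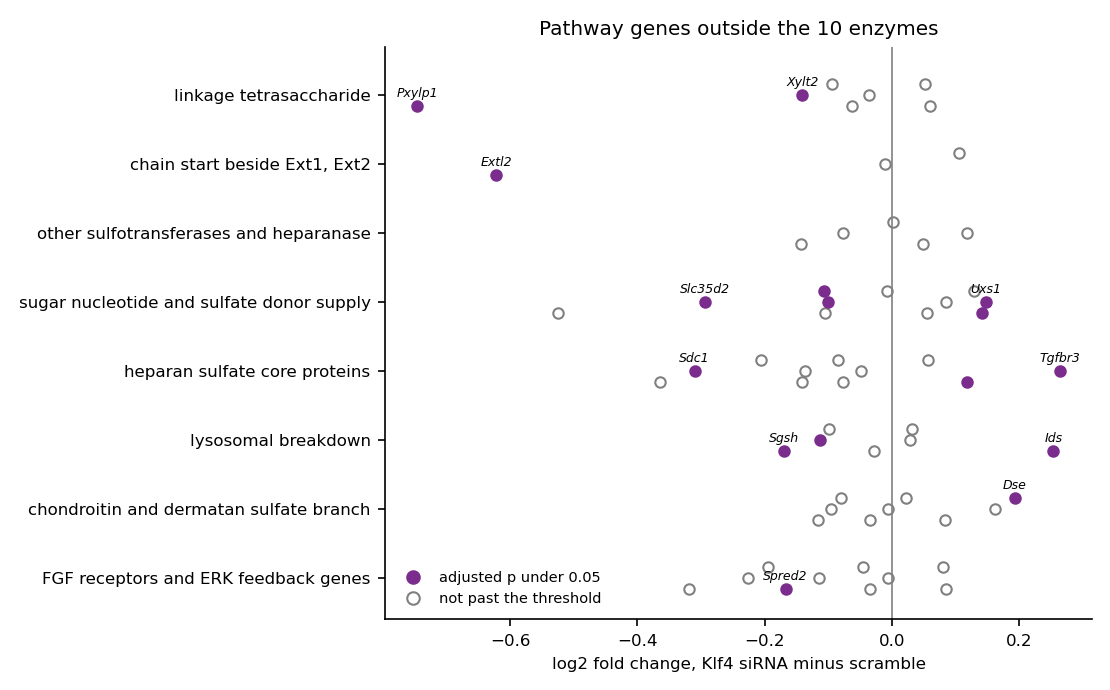
Log2 fold change after knockdown of the 63 tested genes in 8 pathway lists outside the 10 enzymes (filled, edgeR adjusted p under 0.05). Pxylp1 at -0.75 and Extl2 at -0.62 stand to the left of all other genes plotted.

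The genes most like Hs6st1 and Sulf1 were taken from those with a mean of at least 10 CPM, by Pearson's correlation of log2 CPM over the 8 libraries after the mean of each batch was taken out. For Hs6st1 these were Map1lc3b (r = 0.999), Pkp4 (0.998) and Ptbp1 (0.997) among 9346 genes, with log2 fold changes of -0.48, -0.22 and -0.27. For Sulf1 they were Ext1 (r = 0.994), Galnt10 (0.989) and Siah3 (0.987) among 9347 genes, with log2 fold changes of -0.27, -0.11 and -0.13. The gene nearest to Sulf1 was thus itself one of the 10 enzymes. The 8 points share libraries and the treatment contrast, and the highest of so many values is high by selection.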

How the data were processed

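The authors deposited whole-number counts per gene for 8 libraries, not normalized. Per the submitters' processing notes, FastQC, STAR, featureCounts and DESeq2 were used with mm10, while the design text names edgeR with batch correction. Versions, annotation and the strand setting are not given in the sources used here. The table was treated as raw counts, with 0 columns left unmapped. All 55536 identifiers and symbols matched GENCODE M21 (GRCm38), from which positions and exon lengths came. Promoter sequences came from RefSeq (GRCm38.p6).

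Genes were kept with filterByExpr, scaled with TMM and fitted with batch and treatment by the robust quasi-likelihood method of edgeR 4.0.16 in R 4.3.3 (5 residual degrees of freedom). P-values were two-sided and adjusted over all 16333 genes by the Benjamini-Hochberg method, with 0.05 as threshold. For each fold change, its size over the root of the F statistic gave the s.e. Differences within a batch use log2 CPM with a prior count of 2. Without molecular identifiers, counts include PCR duplicates.

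The members and lists were chosen with earlier results of these data known. Named were Klf4, the 10 genes, at most 4 genes past the threshold per list with the smallest adjusted p, and 3 genes most like each of Hs6st1 and Sulf1. Other genes that did not pass were named after their values were seen. Alternatives were the Wald test of DESeq2 1.42.0, its size factors in edgeR, library size alone, every gene kept or only those with a mean from 5 CPM up, fits without batch, within batch 1 or blocked by replicate, control libraries alone (for batch), and each library left out. Those for the interaction, for counts of the 10 genes and for the within-library differences were chosen after seeing the data.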

Additional observations from a re-analysis of the deposited data

Results flagged for a closer look

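The levels of 30 named genes were searched for a library that stood off from the other 3 of its treatment, by its distance to the next value over the whole range. Of 60 groups, 4 passed the 95% value for 4 samples, where chance would pass about 1 in 20, here 3, if the 4 libraries were alike. Each group mixes the batches, so 3 is not the chance rate of these groups. In 3 of the 4 that passed, the library was knockdown replicate 3, which alone carries batch 2 in its treatment. It was lowest for Glce (47.5 CPM against 57.6 to 58.2 CPM, gap of 0.94 of the range), highest for Sdc1 (40.8 against 23.3 to 24.0 CPM, gap of 0.959) and highest for Spred2 (85.0 against 79.0 to 79.3 CPM, gap of 0.941). Among controls, batch 2 differed from batch 1 in the same direction for all 3 genes: 40.8 and 44.0 CPM against 47.7 and 48.7 CPM for Glce, 48.0 and 49.3 against 29.8 and 30.5 CPM for Sdc1, and 93.0 and 96.8 against 88.0 and 90.5 CPM for Spred2. The remaining case was Impad1, for which control replicate 4 had 319 CPM against 343 to 346 CPM in the other control libraries (gap of 0.907).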

How the results depend on the processing

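The log2 fold changes of Hs6st1 and Sulf1 kept their direction in all 16 alternatives. For Hs6st1 it was -0.79 both without the batch term and with the replicate block. Genes called after knockdown (1909) were 409 without the batch term, 1232 in batch 1 alone, 1220 with the replicate block and from 934 to 2021 with a library left out (934 without control replicate 1, 1012 without control replicate 2, 1232 without knockdown replicate 3). Of the pathway genes outside the 10 enzymes (16), 3 passed without the batch term, 9 in batch 1 alone, 9 with the replicate block and from 8 to 17 with a library left out. Of the named ones, Dse, Sdc1, Uxs1, Xylt2, Ugdh and Papss1 did not pass with the block (adjusted p from 0.0532 for Ugdh to 0.181 for Sdc1). The interaction passed for 17 genes with no filter and for 0 to 13 with a library left out, the 13 without control replicate 3. It could not be fitted without knockdown replicate 3. Calls between batches (5343) ran from 3843 to 6210. Differences between batches near 0 changed sign: Hs2st1 was -0.022 with library size alone and -0.00151 to 0.0397 with a library left out, and Sulf2 was -0.0278 to 0.00176. The replicate numbers were not taken as pairs: deviations of same-numbered libraries correlated at 0.49, 0.42, 0.72 and -0.34, replicates 4 lie in different batches, and 5 of 8 libraries correlated best with their own number. Causes were not tested.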

Other observations

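Differences between batches reached further into the pathway than the 10 enzymes. Of the 63 pathway genes tested outside them, 24 were higher and 14 lower in batch 2 at an edgeR adjusted p under 0.05, where 32.7% of all genes tested differed. Among core proteins, the glypican Gpc4 was low in batch 1 controls (0.376 and 1.08 CPM) and higher in batch 2 controls (5.95 and 5.84 CPM), a 6.50-fold difference in the fit (adjusted p = 1.1e-05). The more abundant Gpc1 was 1.31-fold higher (adjusted p = 5.2e-10) and Sdc1 1.66-fold higher (adjusted p = 3.9e-12), while Sdc4 was lower, at 0.742 of the batch 1 level (adjusted p = 3.6e-07). The 3-O-sulfotransferase genes Hs3st6 and Hs3st4 were 4.93-fold and 4.24-fold higher (adjusted p = 8.0e-08 and 7.1e-05), both at under 2 CPM in every library. The genes of this paragraph were chosen after their values were seen.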
